A study of Mus musculus with 6 samples.

Results

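The aldo-keto reductases and the aldehyde dehydrogenases are the enzymes that liver cells use to dispose of aldehydes and ketones. Aldo-keto reductases, the Akr genes, reduce a carbonyl group to an alcohol with NADPH and act on sugars, steroids, bile acid precursors and reactive lipid aldehydes. Aldehyde dehydrogenases, the Aldh genes, oxidise an aldehyde to an acid, and they serve alcohol breakdown, retinoic acid synthesis, folate metabolism and the catabolism of amino acids. Members were taken as the rows of the gene count table whose symbol starts with Akr or Aldh followed by a digit, with at least 10 counts summed over the 6 mice. Of 26608 rows, 37 carried such a symbol and 34 reached that total, 16 Akr and 18 Aldh genes. The 3 rows left out were Akr1cl with 0 counts, Aldh3a1 with 4 counts and Aldh3b2 with 7 counts.

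The counts come from liver RNA of 3 LiKM and 3 LiK mice, all aged 6 weeks, and the labels do not spell the genotypes out. As known from the published work on these mice and not from the labels, the hepatocytes of LiKM mice are without Mdm2, a ubiquitin ligase that holds p53 in check, while those of LiK mice have it. What drives the recombinase, which sex the mice were and on which strain they were bred is not given in the sources used here. Comparing LiKM with LiK therefore asks what the loss of Mdm2 adds to the liver of LiK mice. Mdm2 itself had 122, 124.5 and 60.5 CPM (read counts scaled to a common library size by TMM) in LiKM 1, 2 and 3, against 28.7, 29.0 and 28.6 CPM in LiK 1, 2 and 3, and was called higher in LiKM (log2 fold change 1.83, SE 0.27). Its count is summed over the gene and does not show whether part of the gene was deleted, so it does not check the genotype. The libraries held 19909993 to 20762712 counts in LiKM and 20778717 to 24874343 in LiK. The 8 hepatocyte markers examined were all present, and 0 were called by edgeR, DESeq2 or limma-voom. In edgeR, 2 had an unadjusted p under 0.05. Alb and Ttr were the 2 with a positive log2 fold change, and the median of the 8 was −0.31. Fah and Apoa1 were lower in every LiKM library than in any LiK library. Among markers of other cell types, all 7 tested T and natural killer cell markers, 4 of 10 stellate cell and fibroblast markers and 2 of 8 macrophage markers were called higher in LiKM by edgeR. All 10 stellate cell and fibroblast markers and all 8 macrophage markers had positive log2 fold changes. DESeq2 called 7, 6 and 4 markers of these 3 lists, and limma-voom 7, 5 and 4. The macrophage markers summed to 324 to 476 CPM in LiKM and 222 to 295 CPM in LiK. The T and natural killer cell markers summed to 12.3 to 17.7 CPM in LiKM and 1.88 to 2.42 CPM in LiK. The summed level of the stellate cell and fibroblast markers was 751 to 759.8 CPM in LiKM and 305 to 506 CPM in LiK. For markers of bile ducts and progenitors it was 108.6 to 231 CPM in LiKM and 82.2 to 254 CPM in LiK, and for endothelium 177 to 278 CPM in LiKM and 189 to 214 CPM in LiK. The bile duct and progenitor sum was mostly Spp1, with a mean of 147 CPM in LiKM and 119 CPM in LiK. Of the 6 tested markers of that list, 5 had a positive log2 fold change, with a median of 1.05. Krt19, Krt7, Epcam and Sox9 were higher in every LiKM library than in any LiK library. Of that list edgeR and limma-voom called 0 and DESeq2 2. No marker of any list was at 0 in every library. In bulk tissue, fewer cells of a type and less RNA per cell cannot be told apart.

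A single member passed the test, in a comparison that called many genes. The test was the quasi-likelihood test of edgeR over all 13537 genes that passed its expression filter, at a Benjamini-Hochberg adjusted p under 0.05, and "called", "rose" and "fell" refer to this test unless another tool is named. Of the 34 members, 30 passed the filter. Akr1c18, the hydroxysteroid dehydrogenase that inactivates progesterone, rose in LiKM, and the other 29 tested members were not called by edgeR. DESeq2's Wald test called 7 of the 34 members and limma-voom 5 of the 30 tested, Akr1c18 among them in both. Over all genes, limma-voom called 1323 of the same 13537, and DESeq2 called 1536 in the whole table. Shares were not computed for these 2 tools, so the shares that follow hold for edgeR alone. The members called by edgeR made up 3.33% of those tested, beside 5.92% of all genes, with 5.11% of all genes called higher in LiKM and 0.813% called lower. The median log2 fold change was −0.02 over the 30 tested members and −0.0034 over all genes, and 14 members had a positive log2 fold change, beside 49.5% of all genes.

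The members that were not called lay on both sides of 0. The genotypes did not overlap in 12 of the 30 tested members (40%), beside 29.6% of all genes tested. LiKM was above LiK in 7 of them and below LiK in 5, while 17.8% and 11.8% of all genes were separated in these directions. An unadjusted p under 0.05 in edgeR was reached by 11 members (36.7%) and by 22.4% of all genes. The summed level of the 16 Akr genes was 2124 ± 251 CPM in LiKM and 2413 ± 183 CPM in LiK (SD, n = 3 each). That of the 18 Aldh genes was 6089 ± 295 CPM in LiKM and 5953 ± 55.0 CPM in LiK. Both sums overlapped between the genotypes on this TMM scale. As a percent of each library's total counts, the Aldh genes took 0.657%, 0.646% and 0.624% in LiKM, against 0.541%, 0.572% and 0.577% in LiK, with no overlap. With library totals as the scaling, the median log2 fold change of all genes was itself 0.16. The share of all genes separated on that scale was not counted, so this separation cannot be read as particular to the Aldh genes.

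**Figure D1:**
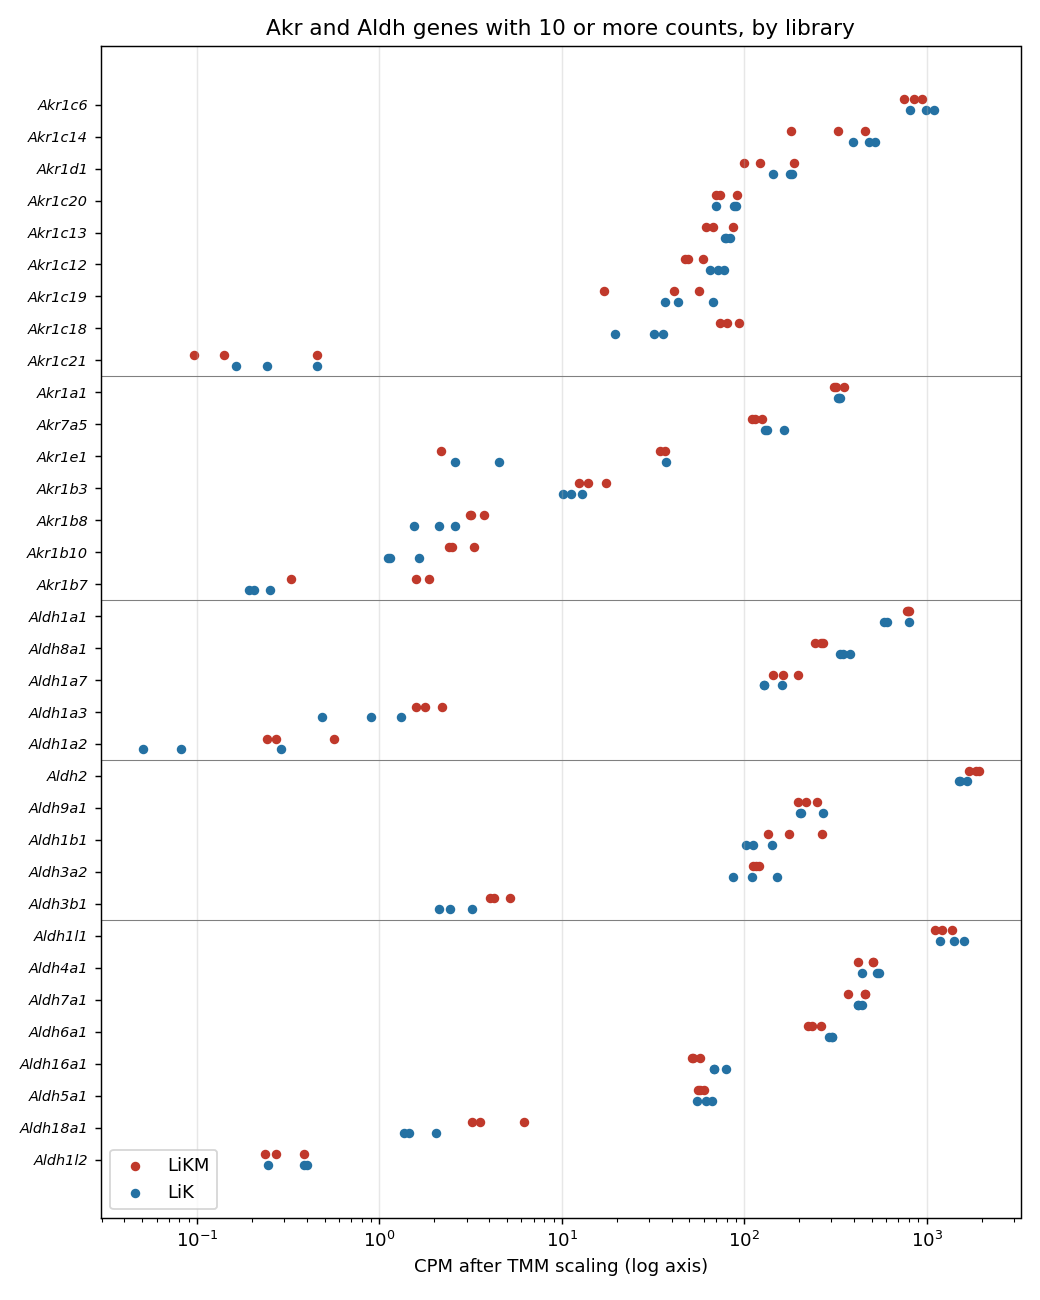
Level of each of the 34 members in each library, in CPM after TMM scaling on a logarithmic axis, with LiKM libraries in red above LiK libraries in blue. Lines part the role groups, from the top the Akr1c and Akr1d1 genes, the other Akr genes, and the Aldh genes of retinal, of acetaldehyde and lipid aldehydes, and of amino acids, folate and GABA. Akr1c18 is the row of the top group in which all LiKM libraries lie above the LiK libraries, and Akr1e1 is spread widely in both genotypes.

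Levels between genes were compared per length, as CPM per kilobase of exon in GENCODE M21, since longer transcripts collect more counts. On that scale Akr1c6, Aldh2 and Aldh1l1 were the 3 highest members in both genotypes. Akr1c6, the mouse enzyme that interconverts weak and potent sex steroids, stood at 419 CPM per kilobase in LiKM and 474 CPM per kilobase in LiK. It alone made up 43.3% ± 3.89 of the summed length-scaled level of the Akr genes in LiKM and 44.0% ± 2.67 in LiK (SD, n = 3 each). Aldh2 made up 26.6% ± 1.53 of that of the Aldh genes in LiKM and 23.5% ± 1.53 in LiK, and Aldh1l1 20.3% ± 1.47 in LiKM and 23.9% ± 3.35 in LiK. At the other end, Akr1c21, Aldh1a2 and Aldh1l2 stayed under 0.2 CPM per kilobase in the mean of either genotype.

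The Akr1c genes lie side by side on chromosome 13, in the RefSeq order Akr1c14, Akr1c18, Akr1c13, Akr1c19, Akr1c12, Akr1c6, Akr1c20, Akr1c21 and Akr1e1 of GRCm38.p6, so the member that rose stands among close relatives that edgeR did not call. The coding sequences of Akr1c12 and Akr1c13 are 96.2% identical, with 228 bases shared without a break between their transcripts, and Akr1c6 and Akr1c20 are 92.3% identical. Akr1c18 is less like its neighbours. Among members with 10 or more counts its closest relative is Akr1c21 (76.8%), and the longest run they share is 32 bases. Longer runs are shared with more abundant members, among them Akr1c14 (48 bases, 76.0% identical) and Akr1c6 and Akr1c20 (38 bases each, 76.7%). Reads may thus be split or lost between Akr1c12 and Akr1c13, whose separate counts are uncertain, more than for Akr1c18. The 250 bases before the RefSeq start of Akr1c18 are set below beside those of Akr1c12 and Akr1c13, to show how far the gene that rose differs from that pair. They are written 5′ to 3′ on the strand of each gene, from GRCm38.p6, at chr13:4150647-4150896 (minus strand), chr13:4279400-4279649 (minus strand) and chr13:4190937-4191186 (plus strand). Capitals mark the bases at which Akr1c12 and Akr1c13 differ when aligned, unpaired ends included.
Akr1c18: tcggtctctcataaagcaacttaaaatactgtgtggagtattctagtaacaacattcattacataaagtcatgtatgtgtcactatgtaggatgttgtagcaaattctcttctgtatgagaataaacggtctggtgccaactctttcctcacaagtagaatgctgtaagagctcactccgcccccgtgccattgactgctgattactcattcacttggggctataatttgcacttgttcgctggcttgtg
Akr1c12: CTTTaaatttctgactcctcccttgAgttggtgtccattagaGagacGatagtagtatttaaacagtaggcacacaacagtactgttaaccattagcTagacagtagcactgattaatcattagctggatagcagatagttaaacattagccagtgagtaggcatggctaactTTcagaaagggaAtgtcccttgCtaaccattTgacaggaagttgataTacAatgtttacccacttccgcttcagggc
Akr1c13: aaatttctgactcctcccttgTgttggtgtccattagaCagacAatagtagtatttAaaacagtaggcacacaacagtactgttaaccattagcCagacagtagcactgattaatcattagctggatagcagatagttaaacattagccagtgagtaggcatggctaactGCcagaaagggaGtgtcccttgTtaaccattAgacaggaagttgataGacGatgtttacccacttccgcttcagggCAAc

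Over these 250 bases Akr1c12 and Akr1c13 were 92.5% identical, while Akr1c18 was 44.6% identical to either of them. Akr1c14, which edgeR did not call, was 42.5% identical to Akr1c12, 43.9% to Akr1c13 and 52.1% to Akr1c18. The difference from that pair is thus not particular to Akr1c18. Identity between unrelated sequences was not computed, so the lower figures have no baseline. Both strands of these windows were searched for 4 motifs. These were the antioxidant response element core TGACNNNGC, the AP-1 site TGANTCA, the E-box CACGTG and the p53 half-site. None of the 4 was found in the windows of Akr1c18, Akr1c12 or Akr1c13, which says only that these letters are not there. Of 32851 RefSeq windows of the same length, 10.2% held the first, 6.75% the AP-1 site, 6.02% the E-box and 7.13% the p53 half-site. Of the 37 rows, 29 matched a window. The antioxidant element core was found before Aldh9a1, Aldh1a2 and Akr1cl (a row left out of the members), the AP-1 site before Aldh1a1, and the E-box before Aldh18a1, Aldh3a2 and Akr1c21. The p53 half-site was not found in any of these Akr and Aldh windows, which again says only that its letters are not there.

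Akr1c18 had 73.3, 93.7 and 80.5 CPM in LiKM 1, 2 and 3, against 31.9, 19.5 and 35.6 CPM in LiK 1, 2 and 3. Every LiKM library was above every LiK library, and the lowest LiKM level was more than the highest LiK level by more than the spread within LiK. The log2 fold change was 1.51 (SE 0.23, 95% interval 0.97 to 2.04), a 2.84-fold higher level in LiKM (edgeR, Benjamini-Hochberg adjusted p = 0.0209). Its share of the summed length-scaled level of the 8 Akr1c genes was between 7.27% and 11.4% in LiKM and between 2.32% and 3.31% in LiK. It ranked 11 of the 34 members by mean level per kilobase in LiKM and 19 in LiK. The call did not hold without LiK 1, LiK 2 or LiKM 2 (edgeR adjusted p of 0.0815, 0.0554 and 0.0763), while the log2 fold change lay between 1.29 and 1.68 over the 6 omissions. The stellate cell, macrophage and T cell markers given above moved with the genotype as Akr1c18 did, and their part in its level was not tested.

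The other 7 Akr1c genes were not called by edgeR, and the 6 of them that were tested had negative log2 fold changes. Akr1c6 had 948, 754 and 856 CPM in LiKM, against 988, 810.3 and 1094 CPM in LiK, with overlapping groups and a log2 fold change of −0.18 (95% interval −0.55 to 0.20). Akr1c14, a hydroxysteroid dehydrogenase that reduces dihydrotestosterone and dihydroprogesterone, had 459, 326 and 179.9 CPM in LiKM, against 519, 395 and 481 CPM in LiK. LiKM 3 was the lowest library of all for this gene, LiKM 1 lay within the LiK range, and the log2 fold change of −0.53 had an interval from −1.27 to 0.20, and was −0.91 without LiKM 1 and −0.26 without LiKM 3. Akr1c19 followed the same order within LiKM, with 56.4, 41.3 and 17.1 CPM there, against 36.9, 67.1 and 43.5 CPM in LiK. Akr1c12 was the one relative whose libraries did not overlap, with 59.5, 49.0 and 47.2 CPM in LiKM, against 65.2, 71.6 and 77.8 CPM in LiK. Its log2 fold change of −0.46 (95% interval −0.77 to −0.16) stayed short of the threshold in edgeR (adjusted p = 0.0825) and passed it in DESeq2's Wald test (adjusted p = 0.0308). When the counts of Akr1c12 and Akr1c13 were summed into 1 row, the log2 fold change was −0.30 (SE 0.14, edgeR adjusted p = 0.253). Akr1c13 and Akr1c20 overlapped between the genotypes, with log2 fold changes of −0.16 and −0.07. Akr1c21 had 3, 10 and 2 counts in LiKM and 5, 9 and 4 counts in LiK and was not tested.

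**Figure D2:**
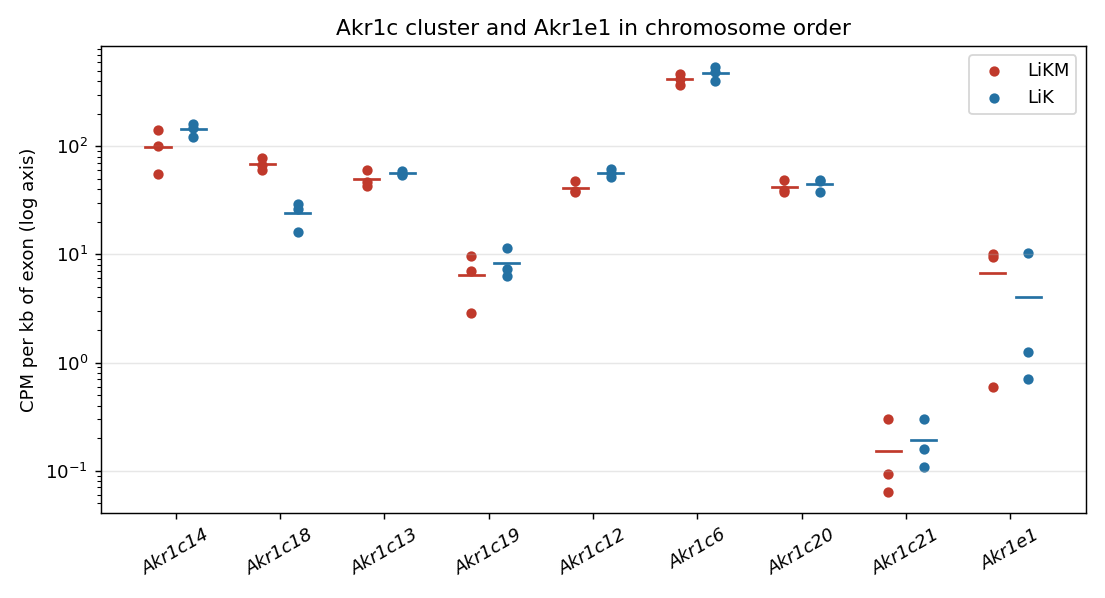
Level per kilobase of exon, on a logarithmic axis, of the Akr1c genes and Akr1e1 in their order along chromosome 13. Points are libraries and short bars are means of 3, with LiKM in red left of LiK in blue. Akr1c18 averaged 68.3 CPM per kilobase in LiKM and 24.0 in LiK, Akr1c14 averaged 99.3 in LiKM and 144 in LiK, and Akr1e1 shows separate high and low mice in each genotype.

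Akr1d1, outside the cluster, encodes the reductase that sets the bent ring of bile acids and clears steroid hormones. It had 122, 188 and 99.9 CPM in LiKM, against 182, 178 and 143 CPM in LiK, with LiKM 2 at the top of the range and the other LiKM libraries at the bottom. The log2 fold change was −0.30 (95% interval −0.85 to 0.25). Its partners in bile acid synthesis and steroid ring metabolism mostly had negative log2 fold changes. Of 25 tested genes of that list, 0 rose, 2 fell and 23 were not called by edgeR, 5 had a positive log2 fold change, and the median was −0.29. DESeq2 called 7 genes of this list and limma-voom 4. The 2 that fell were Cyp7b1, an oxysterol hydroxylase (log2 fold change −2.97, SE 0.59), and the steroid dehydrogenase gene Hsd3b5 (−1.63, SE 0.37). A further steroid dehydrogenase gene, Hsd3b2, had a log2 fold change of −0.94 (SE 0.23) and was not called. Cyp7b1 and Hsd3b5 are known in mice as genes of the male liver. The sex of each mouse is not given, and its part in these values was not tested.

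Among the aldose and aldehyde reductases, 4 of 6 tested genes had positive log2 fold changes and 0 of 6 were called by edgeR. An unadjusted p under 0.05 was reached by 2 of them, limma-voom called Akr1b10, and DESeq2 called Akr1b10 and Akr1b7. Akr1a1, the aldehyde reductase that mice use on the way to vitamin C, had 353, 309 and 319.8 CPM in LiKM, against 328, 336 and 331 CPM in LiK. The interval of its log2 fold change ran from −0.27 to 0.23, so a difference in either direction of the size seen for Akr1c18 was outside it. Akr7a5, which reduces the dialdehyde of aflatoxin, had 125, 115 and 109.6 CPM in LiKM, against 129.9, 133 and 164 CPM in LiK. The libraries of Akr7a5 did not overlap, but its log2 fold change of −0.29 had an interval from −0.59 to 0.0061.

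The Akr1b genes are neighbours on chromosome 6, and all were higher in the mean of LiKM without passing the test. Akr1b3, the mouse aldose reductase that turns glucose into sorbitol, had 12.4, 17.4 and 14.0 CPM in LiKM, against 12.8, 10.2 and 11.2 CPM in LiK, with overlapping groups. Akr1b8 had 3.76, 3.13 and 3.18 CPM in LiKM, against 1.54, 2.11 and 2.59 CPM in LiK, with every LiKM library above every LiK library. Akr1b10 was separated in the same way, with 2.40, 3.31 and 2.51 CPM in LiKM, against 1.64, 1.11 and 1.15 CPM in LiK. Their log2 fold changes were 0.36, 0.69 and 1.08 (SE 0.17, 0.25 and 0.27), and edgeR gave Akr1b10 a Benjamini-Hochberg adjusted p of 0.0658. Akr1b7, a relative known from the vas deferens and adrenal cortex of mice, had 7, 41 and 33 counts in LiKM and 4, 5 and 5 counts in LiK. It did not pass the expression filter, and LiKM 1 lay close to the LiK libraries. The coding sequence of Akr1b10 is 89.2% identical to that of Akr1b7 and 85.1% to that of Akr1b8, so counts this low are uncertain between the copies.

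Akr1e1, the reductase of anhydrofructose, varied more between mice of 1 genotype than any other tested member. It had 2.16, 36.5 and 34.4 CPM in LiKM, against 4.53, 37.3 and 2.59 CPM in LiK. LiKM 2, LiKM 3 and LiK 2 were high and the other mice low, so each genotype held both levels. The within-genotype SD of its log2 CPM was 2.16, beside a median of 0.23 over all genes tested, and 99.9% of those genes had an SD no larger. Its log2 fold change of 0.72 had an interval from −2.002 to 3.45, and lay between 0.22 (without LiK 3) and 2.78 (without LiK 2) when 1 library was left out. Genes beside it did not share the pattern. Akr1c21 was near 0 throughout, Klf6 had 18.2, 14.2 and 20.3 CPM in LiKM and 5.59, 5.44 and 7.43 CPM in LiK, and Pitrm1 had 28.9, 30.8 and 30.8 CPM in LiKM and 23.6, 24.6 and 28.3 CPM in LiK.

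**Figure D3:**
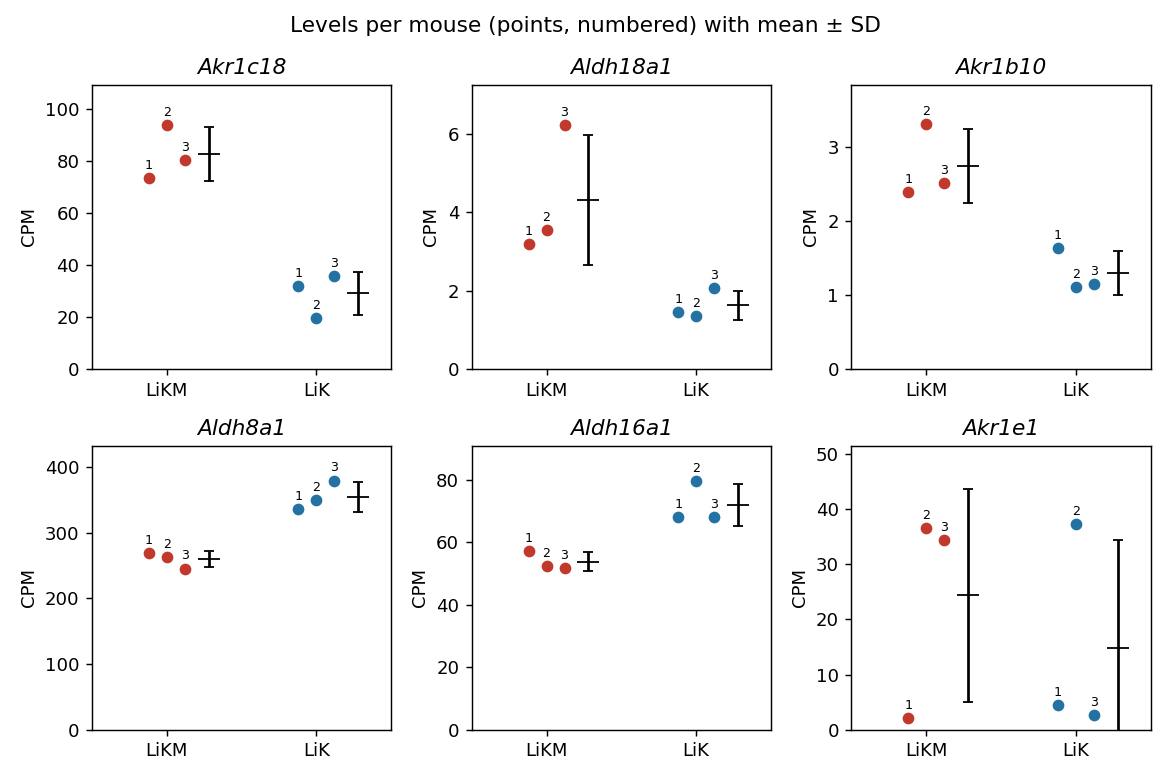
Level in CPM of 6 members in each mouse, numbered by replicate, with LiKM in red left of LiK in blue and the mean ± SD of 3 mice in black. Akr1c18, Aldh18a1 and Akr1b10 are higher in all LiKM mice, Aldh8a1 and Aldh16a1 are lower in all LiKM mice, and Akr1e1 is high in LiKM 2, LiKM 3 and LiK 2, where the lower LiK error bar is cut at 0.

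The retinal dehydrogenases make retinoic acid, the ligand of retinoic acid receptors. Of 4 tested members of this group, with Aldh8a1 counted in it, 0 were called by edgeR and 2 had an unadjusted p under 0.05, while DESeq2 and limma-voom each called Aldh8a1. Aldh1a1, the main form of the mouse liver, had 776, 794 and 802 CPM in LiKM, against 584, 800.4 and 608 CPM in LiK. LiK 2 lay among the LiKM libraries, and the log2 fold change of 0.25 had an interval from −0.11 to 0.61. Aldh1a7, its neighbour on chromosome 19 with a coding sequence 91.6% identical, had 163, 144 and 197 CPM in LiKM, against 129, 161 and 128 CPM in LiK. Summed into 1 row, the pair had a log2 fold change of 0.25 (SE 0.15, edgeR adjusted p = 0.376).

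Aldh1a3, a form scarce in liver, had 2.21, 1.59 and 1.78 CPM in LiKM, against 0.482, 1.31 and 0.903 CPM in LiK, with no overlap. These levels are 35 to 47 counts per library in LiKM and 10 to 26 in LiK. The log2 fold change was 1.05 (95% interval 0.16 to 1.94) with an edgeR adjusted p of 0.162. Aldh1a2 had 12, 6 and 5 counts in LiKM and 6, 1 and 2 counts in LiK and was not tested. Both were higher in the mean of LiKM, as was the summed level of the stellate cell and fibroblast markers, and the part of that cell type in these values was not tested.

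Aldh8a1 was the member whose lower level in LiKM came closest to the threshold. Its enzyme was first described as a retinal dehydrogenase and is now placed in the breakdown of tryptophan. Aldh8a1 had 269.6, 264 and 246 CPM in LiKM, against 336, 349 and 379.7 CPM in LiK, with every LiKM library below every LiK library. The spread within a genotype was small, with SDs of 12.5 CPM in LiKM and 22.6 CPM in LiK. Its log2 fold change was −0.45 (SE 0.11, 95% interval −0.71 to −0.20), and edgeR did not call it (Benjamini-Hochberg adjusted p = 0.0584). DESeq2's Wald test and limma-voom did, with adjusted p of 0.0022 and 0.0328.

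Of 23 tested genes of the wider retinoid list, 2 rose, 0 fell and 21 were not called by edgeR, 12 had a positive log2 fold change, and the median was 0.16. DESeq2 called 3 genes of this list and limma-voom 4. Rarg, a retinoic acid receptor, had 14.2, 11.6 and 12.7 CPM in LiKM, against 6.16, 5.28 and 5.46 CPM in LiK (log2 fold change 1.18, SE 0.15). Rdh9, a retinol dehydrogenase, had 111, 123 and 119 CPM in LiKM, against 71.0, 57.0 and 65.6 CPM in LiK (0.87, SE 0.11). Rdh7, a related and more abundant enzyme, was lower in every LiKM library, with 903, 832 and 899 CPM there against 1156, 1142 and 1281 CPM in LiK, and was not called (−0.44, SE 0.12).

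Acetaldehyde and lipid aldehydes are handled by a further group, of which 0 of 5 tested members were called by edgeR, DESeq2 or limma-voom and 2 had an unadjusted p under 0.05 in edgeR. Aldh2, the mitochondrial enzyme that clears acetaldehyde, had 1865, 1715 and 1927 CPM in LiKM, against 1500.0, 1530.5 and 1654 CPM in LiK. All LiKM libraries were above all LiK libraries, but the log2 fold change was 0.23 with an interval from −0.07 to 0.53. Aldh1b1, a mitochondrial relative of Aldh2, had 265, 175 and 136 CPM in LiKM, against 141, 103 and 112 CPM in LiK. LiKM 1 stood well above the rest and LiKM 3 lay inside the LiK range, and the log2 fold change was 0.69 (95% interval 0.10 to 1.29) with an edgeR adjusted p of 0.164. Without LiKM 1 it was 0.36.

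Aldh3b1, which acts on lipid aldehydes, had 5.22, 4.04 and 4.24 CPM in LiKM, against 2.12, 3.22 and 2.42 CPM in LiK, with no overlap. The log2 fold change of Aldh3b1 was 0.80 (SE 0.23, edgeR adjusted p = 0.0967), short of the threshold. Aldh3a2, the fatty aldehyde dehydrogenase, averaged 116 ± 4.57 CPM in LiKM and 116 ± 32.6 CPM in LiK. Aldh9a1, an enzyme of carnitine synthesis, had 217, 196 and 252 CPM in LiKM, against 201, 204 and 271 CPM in LiK, with a log2 fold change of −0.02. Intervals ran from −0.45 to 0.46 for Aldh3a2 and from −0.40 to 0.35 for Aldh9a1.

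The oxidation route around Aldh2 held no call. Of 14 tested genes of alcohol and aldehyde oxidation, 0 were called by edgeR in either direction, 4 had an unadjusted p under 0.05, 6 had a positive log2 fold change, and the median was −0.21. Cyp2e1, the ethanol-oxidising cytochrome of pericentral hepatocytes, had 3713, 2423 and 2346 CPM in LiKM, against 5613, 4261 and 4954 CPM in LiK (log2 fold change −0.81, SE 0.23, edgeR adjusted p = 0.0873). Adh7 and Cat, which encode an alcohol dehydrogenase and catalase, had log2 fold changes of −0.60 and −0.38, and neither was called. DESeq2 called 2 genes of this list and limma-voom 1. Aldh2 and Cyp2e1 thus had means on opposite sides in the 2 genotypes, each without overlap.

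**Figure D4:**
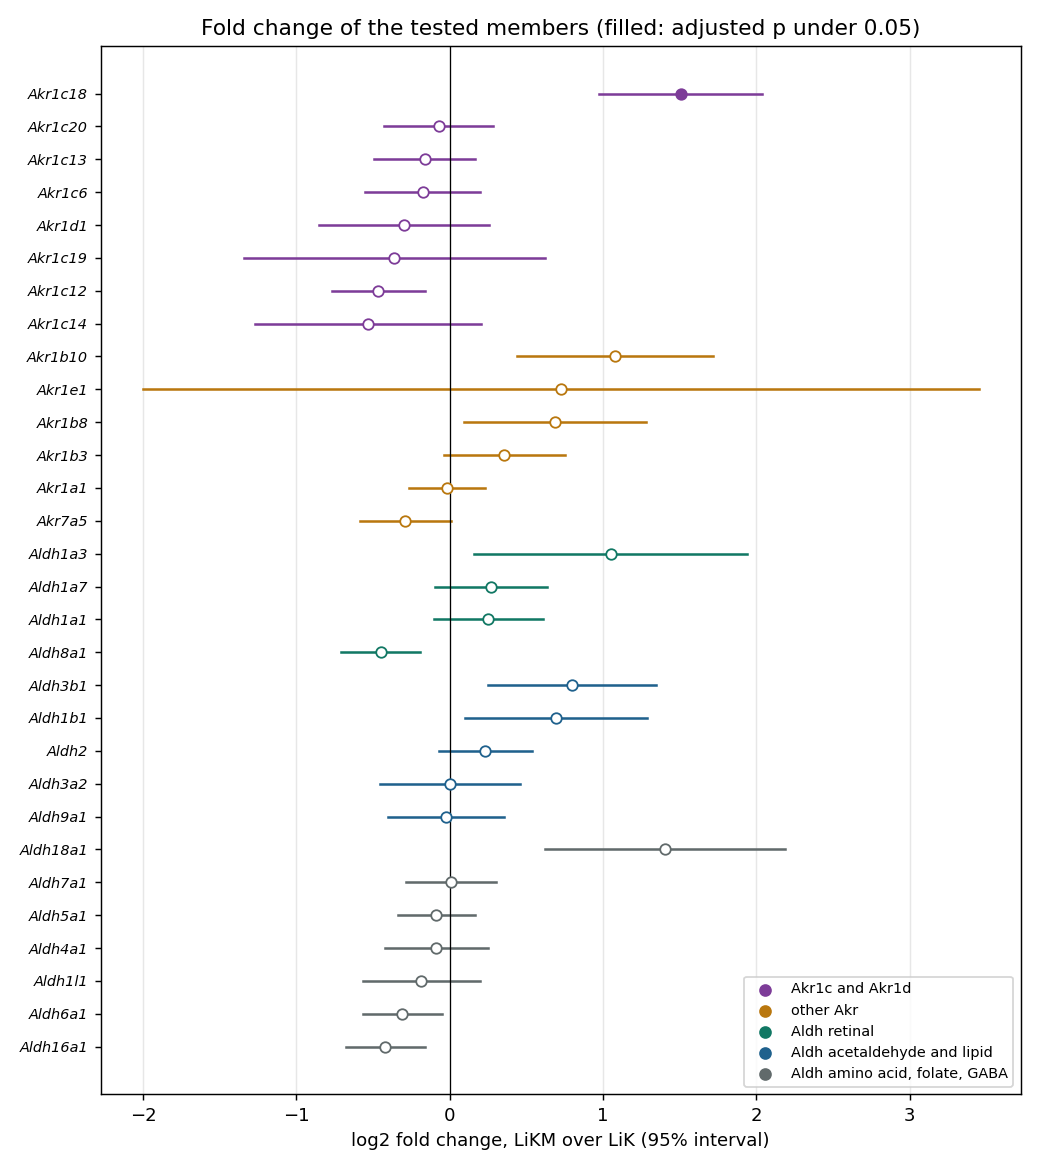
Log2 fold change of LiKM over LiK for the 30 tested members with its 95% interval, grouped by role and ordered within a group. The filled point is Akr1c18 at 1.51, the called member, and open points are not called. The widest interval is that of Akr1e1, from −2.002 to 3.45.

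The last group serves amino acids, folate and GABA, and 0 of its 7 tested members were called by edgeR, while 3 had an unadjusted p under 0.05. Aldh18a1 makes proline and ornithine precursors from glutamate, and Aldh4a1 oxidises the same intermediate back to glutamate. Aldh18a1 had 3.20, 3.54 and 6.22 CPM in LiKM, against 1.44, 1.36 and 2.05 CPM in LiK, with every LiKM library above every LiK library. These levels are 68 to 129 counts per library in LiKM and 27 to 50 in LiK. The log2 fold change was 1.41 (SE 0.33, 95% interval 0.62 to 2.19), and edgeR placed it just short of the threshold (Benjamini-Hochberg adjusted p = 0.0561). DESeq2's Wald test and limma-voom called it, with adjusted p of 0.00455 and 0.0339, as did edgeR with library totals (adjusted p = 0.0358), without a filter (0.0440) and with the replicate block (0.0347). Without any 1 library, edgeR adjusted p lay between 0.0671 and 0.175. Aldh4a1, far more abundant, had 510.5, 505 and 419 CPM in LiKM, against 537, 441 and 545 CPM in LiK, with overlapping groups and a log2 fold change of −0.09. In GENCODE M21 its exons share 1595 bases with a same-strand gene model, Gm21969, so its count is uncertain to that extent.

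Aldh1l1, the cytosolic folate enzyme that hepatocytes hold in large amounts, had 1381, 1208 and 1114 CPM in LiKM, against 1606, 1420.1 and 1181 CPM in LiK. The groups overlapped, and the interval of its log2 fold change ran from −0.57 to 0.20. Aldh1l2, its mitochondrial relative, had 5, 6 and 8 counts in LiKM and 8, 8 and 6 counts in LiK and was not tested. Of 22 tested genes of folate metabolism, 0 were called by edgeR in either direction, 2 had an unadjusted p under 0.05, 12 had a positive log2 fold change, and the median was 0.03. The gene of that list with the smallest adjusted p was Folr2, a folate receptor of macrophages, with a log2 fold change of 0.58 (SE 0.20, edgeR adjusted p = 0.142). It was followed by Shmt1 at −0.42 and Mthfd2 at 0.86, enzymes that pass on single carbons. DESeq2 called 0 genes of this list and limma-voom 1.

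Aldh16a1, a family member that lacks the usual catalytic cysteine in mammals, had 57.2, 52.2 and 51.7 CPM in LiKM, against 67.9, 79.7 and 68.1 CPM in LiK. Its libraries did not overlap, and the log2 fold change was −0.42 (SE 0.11, edgeR adjusted p = 0.0702). DESeq2 and limma-voom called it. Aldh6a1, which oxidises semialdehydes of valine and thymine breakdown, was likewise lower in each LiKM library, with 264, 234 and 225 CPM there against 303, 291 and 301 CPM in LiK. Its log2 fold change was −0.31 (95% interval −0.57 to −0.05), with an edgeR adjusted p of 0.157. Both genes share exon bases with a gene on the opposite strand in GENCODE M21, Aldh16a1 with Pih1d1 over 149 bases and Aldh6a1 with Bbof1 over 1078 bases, and whether the counting used strand is not stated.

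Aldh7a1, which serves lysine breakdown, and Aldh5a1, which clears the semialdehyde of GABA, overlapped between the genotypes. Aldh7a1 averaged 429 ± 48.9 CPM in LiKM and 426 ± 12.8 CPM in LiK, and its interval ran from −0.29 to 0.30. Aldh5a1 averaged 57.6 ± 2.54 CPM in LiKM and 61.1 ± 5.80 CPM in LiK, and its interval ran from −0.34 to 0.17. Of 29 tested genes that make or use these amino acid, choline and GABA aldehydes, 1 rose, 0 fell, 28 were not called by edgeR and 5 had a positive log2 fold change, with a median of −0.21. DESeq2 called 6 genes of this list and limma-voom 3. The one that rose in edgeR was Sat1, which acetylates polyamines (log2 fold change 0.59, SE 0.12). Aadat, of lysine and tryptophan breakdown, and Bckdha, a subunit of the branched-chain ketoacid dehydrogenase, had log2 fold changes of −0.90 and −0.39 and were not called.

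A list of other carbonyl reductases, which holds no Akr gene, had 20 tested genes. Of these, 3 rose, 0 fell and 17 were not called by edgeR, 8 had a positive log2 fold change, and the median was −0.14. DESeq2 and limma-voom each called 5 genes of this list. Those that rose were Cbr3, a carbonyl reductase (log2 fold change 2.12, SE 0.41), Nqo1, a quinone reductase (1.19, SE 0.19), and Ptgr1, which reduces the double bond of reactive lipid carbonyls (1.07, SE 0.21). Cbr3 was scarce, with 1.93, 3.04 and 1.35 CPM in LiKM, against 0.433, 0.654 and 0.369 CPM in LiK.

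NRF2, a transcription factor of the antioxidant response, is known to act on several Akr and Aldh genes, so a list of its usual targets was set beside them. Of 18 tested targets, 7 rose, 0 fell and 11 were not called by edgeR, 15 had a positive log2 fold change, and the median was 0.58. DESeq2 called 11 of this list and limma-voom 8. Nqo1 belongs to this list as well. Gstm3, a glutathione transferase, had 230.1, 299 and 225 CPM in LiKM, against 11.3, 18.4 and 31.8 CPM in LiK (log2 fold change 3.62, SE 0.38). Srxn1, which repairs peroxiredoxins, had 102, 129.5 and 115 CPM in LiKM, against 31.0, 43.2 and 47.7 CPM in LiK (1.51, SE 0.18). The Akr and Aldh members had 1 edgeR call among 30 in the same libraries, and the difference between the lists was not tested.

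**Figure D5:**
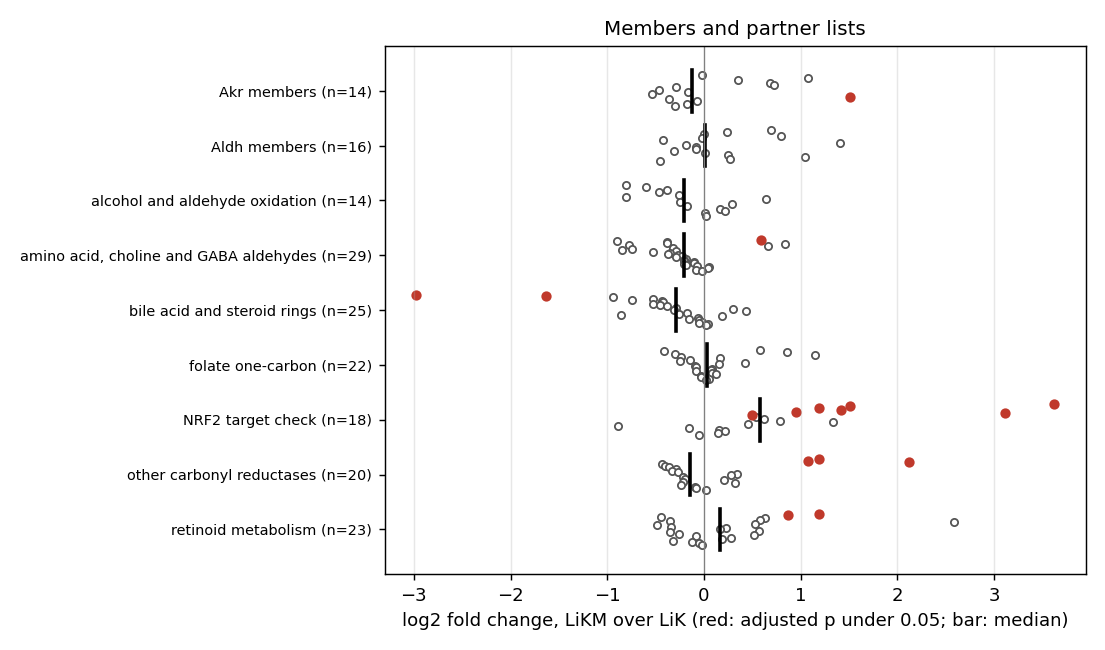
Log2 fold change of LiKM over LiK for each tested Akr and Aldh member and each tested gene of 7 lists of partner enzymes and NRF2 targets. Points are genes, red where the edgeR adjusted p was under 0.05, and black bars are medians, which were −0.12 for the Akr members, 0.0059 for the Aldh members and 0.58 for the NRF2 targets.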

How the data were processed

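Per the submitters' processing notes, reads were checked with FastQC 0.11.7 and counted per gene with featureCounts. Per the labels' protocols, libraries were made with a stranded kit for messenger RNA. Which aligner, build, annotation and strand setting were used is not given in the sources used here. Raw read counts per gene symbol were deposited, 1 column per mouse, and each column name matched the animal code of a single sample title, with 0 columns unused. Titles number the mice within a genotype. Nothing states that the livers were processed apart, so p-values measure the spread between these libraries.

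With edgeR 4.0.16, genes passed its default filter at roughly 10 counts in 3 libraries and 15 in all, library sizes were scaled by TMM (factors 0.903 to 1.11), and LiKM was compared with LiK in R 4.3.3 by the quasi-likelihood test, with genotype as the only term. P-values were adjusted over all genes tested. Standard errors came from the F statistic, and 95% intervals used its degrees of freedom. Scripts were tested on simulated data, where edgeR recovered 43 of 100 2-fold changes and 99 of 100 4-fold changes. The changed genes were drawn from those above a minimum mean count. A gene that was not called may thus still differ by 2-fold. Every pair of libraries within a genotype differed by more than sampling noise (chi-square per gene 36.1 to 125). DESeq2 1.42.0 and limma 3.58.1 served as alternatives. Of the listed partner genes and markers, 7 were matched through an older symbol in RefSeq for GRCm38.p6. Promoter windows are from RefSeq GRCm38.p6, and exon lengths and coding sequences from GENCODE M21, which may differ from the annotation the authors used.

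The members, role groups and lists were chosen with earlier results of these data known. Values in every library were to be printed for called members and, in each role group, for up to 2 uncalled members with the highest level and 2 with the largest log2 fold change, and up to 3 genes per partner list with the smallest adjusted p were to be named. Members printed in full beyond this rule, Klf6 and Pitrm1 were chosen after their values were seen, and the motifs were not part of the rule. An allele that both genotypes share is not reported here.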

Additional observations from a re-analysis of the deposited data

How the results depend on the processing

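The call of Akr1c18 held in all 9 other settings that kept every library, with log2 fold changes from 1.48 to 1.75, and in 3 of the 6 fits without a library, over which it ranged from 1.29 to 1.68. In place of 1 member, 3 were called with library totals as the scaling, 2 without a filter, 7 by DESeq2, 5 by limma-voom, 2 with the replicate block and 0 to 2 without a library. Genes called over the whole table numbered 1536 by DESeq2 and 1323 by limma-voom, in place of 802, and 19 to 626 without a library. Genes called in the partner lists numbered 33, 25 and 23 by DESeq2, by limma-voom and with the replicate block, in place of 14, and 0 to 12 without a library. The cause of these differences was not tested. The sign of some near-zero values turned. With library totals, which moved the median of all genes to 0.16, Akr1a1 was at 0.14, Aldh9a1 at 0.13 and Aldh4a1 at 0.075, all below that median. With the upper quartile Akr1a1 was at 0.0092 and Aldh9a1 at 0.0030, and limma-voom put Aldh4a1 at 0.031. Aldh9a1 ranged from −0.14 to 0.13 without a library. Of 282 values of named members under other settings, 258 kept both sign and side of the threshold. All of these members but Akr1c18 were uncalled in the main fit, so a member that stayed uncalled, also with a library left out, counts as kept. The count therefore says little about how firm a call is. Same-numbered mice deviated together with correlations of 0.267, 0 and 0.127, and differently numbered mice with correlations from −0.197 to 0.046. These values do not settle whether the numbers pair the mice. The labels state no pairing, so the main fit used none, and the replicate block was run as an alternative. Summing near-identical copies by RefSeq protein was not run, and coding sequence was used in its place, chosen after the data were seen. Akr1b7, Akr1c21, Aldh1a2 and Aldh1l2 were too scarce for the default edgeR filter, and Akr1b7 was called by DESeq2 and by edgeR without LiKM 1.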

Other observations

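LiKM 3 stood apart in 2 markers, which were chosen here after their values were seen. The progenitor and bile duct factor Sox9 had 5.97, 5.76 and 18.4 CPM in LiKM 1, 2 and 3, against 5.44, 5.18 and 3.28 CPM in LiK. Tat, the tyrosine aminotransferase of mature hepatocytes, had 3625, 2737 and 794 CPM in LiKM, against 5431, 3374 and 3198 CPM in LiK. LiKM 3 also held the lowest level among the 6 libraries for some members of both families. These were Akr1c12, Akr1c13, Akr1c14, Akr1c19, Akr1c21, Akr1d1, Akr7a5, Aldh16a1, Aldh1l1, Aldh4a1, Aldh6a1 and Aldh8a1. It held the highest level of Aldh18a1, Aldh2, Aldh1a1, Aldh1a7 and Aldh7a1. These members lie in several role groups. How often LiKM 3 held the lowest or highest level over all genes was not counted, so its extremes cannot be read as particular to these families.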
